A study of Mus musculus with 8 samples.

Results

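Expression of 10 genes of the BCL2 family was examined by RNA-seq in MEFs (mouse embryonic fibroblasts, grown from the connective tissue of embryos). The genes were taken by their symbols (Bcl2, Bcl2l1, Mcl1, Bax, Bak1, Bid, Bcl2l11, Bbc3, Pmaip1 and Bmf) from a table of 49492 gene symbols, and all 10 passed a filter on low values that left 16232 genes for testing. There were 4 groups with 2 replicates each: Pontin WT cells in normal medium, Pontin WT cells under glucose starvation, and Pontin RA cells in the same 2 media. All groups came from Pontin f/f MEFs, established by a 3T3 protocol, in which the endogenous gene was deleted with a Cre virus and Flag-tagged Pontin was stably expressed from a lentivirus under hygromycin selection. WT lines carried wild-type Pontin, and RA lines carried Pontin with 2 arginines replaced by alanines, the residues that the arginine methyltransferase CARM1 methylates. Starved cells were kept in medium free of glucose with dialyzed serum, and the length of starvation is not given for these libraries. The study describes routine culture in fetal bovine serum that is not named as dialyzed. The loss of glucose and the change of serum therefore cannot be told apart. WT and RA are separate stable lines, so the Pontin form and the line cannot be told apart. No label says that the replicates were separate cultures, so p-values measure only the spread between these samples, which may be technical.

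The BCL2 family decides whether the outer membrane of the mitochondrion is opened during apoptosis. BCL2, BCL-XL (from Bcl2l1) and MCL1 protect the membrane, and BAX and BAK (from Bak1) are the effectors that form pores in it. The BH3-only proteins BIM (from Bcl2l11), PUMA (from Bbc3), NOXA (from Pmaip1), BMF and BID bind the protective proteins or activate the effectors. Several members are known to be set by transcription, with p53 driving Bbc3, Pmaip1 and Bax, FOXO factors driving Bcl2l11 and Bbc3, and the factors of the endoplasmic reticulum stress response acting on others. Transcript levels do not give the cleavage of BID or the stability of MCL1, which are regulated at the protein level.

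Between 43205841 and 56363034 reads stood behind each library. Levels are given in CPM, here read counts relative to a library size that was scaled for each sample. Differences are given as log2 differences of CPM + 1, which understate the change of genes with low levels, and adjusted p-values are from limma with Benjamini-Hochberg adjustment over all 16232 genes. Ruvbl1, which encodes Pontin, stood at mean levels of 28.0 CPM in WT in normal medium, 28.2 CPM in starved WT, 34.4 CPM in RA in normal medium and 44.0 CPM in starved RA. Its level does not test the labels, since both lines express an added copy. RA exceeded WT by a log2 difference of 0.29 in normal medium (adjusted p = 0.00946) and 0.62 under starvation (adjusted p = 2.94e-07). The amount of Pontin transcript thus differed along with the Pontin form, and its part in the results below was not tested. For the protein, the study reports by immunoblot that both Flag-tagged forms were at levels similar to endogenous Pontin. The fibroblast identity was checked on 8 markers, of which 7 reached 1 CPM and Lum did not. Their summed level was 4480 and 4520 CPM in WT in normal medium, 815 and 784 CPM in starved WT, 4250 and 4290 CPM in RA in normal medium, and 2040 and 2050 CPM in starved RA, carried by the collagen genes Col1a2 and Col1a1. The markers did not move alike: in the same order of groups Dcn had mean levels of 5.90, 7.44, 13.5 and 34.9 CPM and was called higher with starvation in both genotypes, while Thy1 (254, 185, 278 and 282 CPM) and Pdgfrb (147, 113, 129 and 126 CPM) were called lower in WT and were not called in RA. Of 7 macrophage and leukocyte markers, 2 reached 1 CPM and Cd3e was at 0, and their sum, led by Csf1r, was 13 to 17.3 CPM in normal medium, 24 and 24.4 CPM in starved WT and 20.8 and 21.1 CPM in starved RA. The 4 endothelial markers summed to 2.02 to 3.43 CPM in normal medium, 8.92 and 9.43 CPM in starved WT and 5.99 and 6.34 CPM in starved RA, with Pecam1 and Cdh5 under 1 CPM. The 4 epithelial markers summed to at most 1.25 CPM with Krt5 and Krt14 at 0, and the 4 muscle and fat markers to at most 0.046 CPM with Myod1 and Myog at 0. The part of these shifts in the results below was not tested, and in bulk samples fewer cells of a type and less RNA per cell cannot be told apart.

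In WT cells glucose starvation lowered the transcripts of the 3 protective genes and raised those of Bax and of most BH3-only genes. The called changes covered 9 of the 10 genes, of which 5 rose (Pmaip1, Bax, Bbc3, Bmf and Bid) and 4 fell (Bak1, Bcl2l1, Bcl2 and Mcl1), while Bcl2l11 did not pass the test. In the same comparison 78.6% of all tested genes were called, 39.3% of them higher and 39.2% lower as shares of all tested genes, so the family's share was close to the background. The median absolute log2 difference was 0.80 over the family and 0.48 over all tested genes.

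In RA cells starvation changed 7 of the 10 genes. Pmaip1, Bbc3, Bax and Bid rose, and Bak1, Mcl1 and Bcl2l1 fell, while Bcl2, Bcl2l11 and Bmf did not pass the test. Of all tested genes 68.7% were called, 35% as higher and 33.7% as lower. The median absolute log2 difference was 0.43 over the family and 0.33 over all tested genes.

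**Figure D1:**
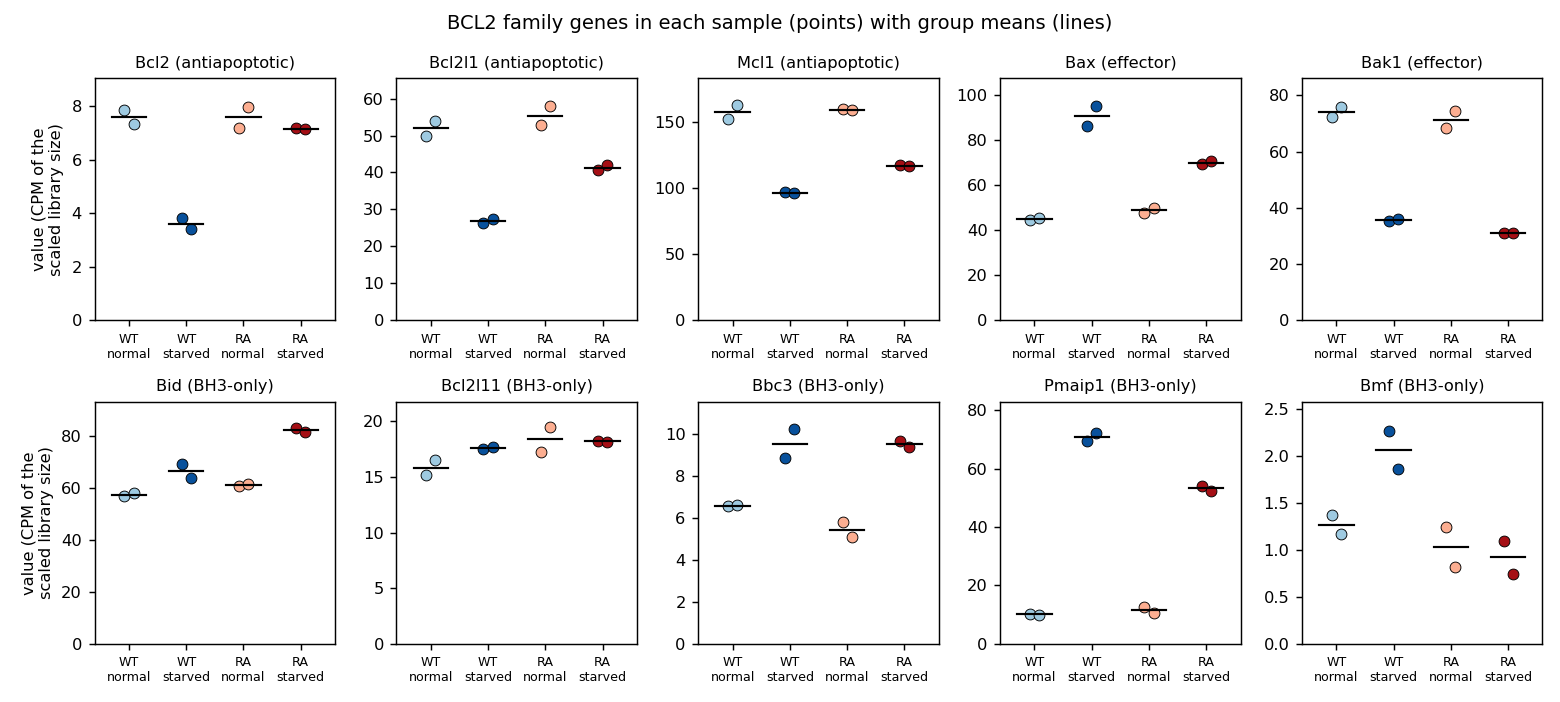
Levels of the 10 BCL2 family genes in CPM of the scaled library size (vertical axes, each starting at 0) in the 4 groups (horizontal axes); points are single samples and lines are means of n = 2. Bcl2 was below 4 CPM in the starved WT samples alone, and Pmaip1 was above 50 CPM in both starved groups.

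Bcl2, the founding protective member, was lower in starved WT cells than in the other groups, and its level in starved RA cells was close to that in normal medium. Bcl2 stood at 7.87 and 7.34 CPM in WT in normal medium, 3.81 and 3.40 CPM in starved WT, 7.17 and 7.98 CPM in RA in normal medium, and 7.17 and 7.14 CPM in starved RA. Both starved WT samples were below all 6 others, which lay within 1 CPM of each other. The log2 difference between starved and normal medium was -0.90 in WT (SE 0.11, adjusted p = 6.1e-07) and -0.07 in RA (SE 0.11, adjusted p = 0.569, 95% interval -0.30 to 0.15). Under starvation Bcl2 was higher in RA than in WT by 0.83 on the log2 scale (SE 0.11, adjusted p = 3.68e-06), a ratio of mean levels of 1.98. The exons of Bcl2 (chr1:106538178-106714274, minus strand, in the GRCm38 reference annotation) share 558 bases with the antisense gene D630008O14Rik, whose mean levels were 1.5, 0.514, 1.29 and 1.17 CPM in the same order of groups. How reads over shared bases were assigned is not given in the sources used here, and its part in the level of Bcl2 was not tested.

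Bcl2l1, which encodes BCL-XL, fell in both genotypes and fell less in RA. Its levels were 50.01 and 54.0 CPM in WT in normal medium, 26.2 and 27.3 CPM in starved WT, 52.9 and 58.0 CPM in RA in normal medium, and 40.6 and 42.0 CPM in starved RA. The starved groups did not overlap with each other or with normal medium. The log2 difference with starvation was -0.93 in WT (SE 0.058, adjusted p = 1.31e-10) and -0.41 in RA (SE 0.058, adjusted p = 7.17e-06). Starved RA exceeded starved WT by 0.61 on the log2 scale (SE 0.058, adjusted p = 1.03e-07).

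Mcl1, which encodes a short-lived protective protein, had the highest level of the family in normal medium and followed the order of Bcl2l1. It stood at 153 and 163 CPM in WT in normal medium, 97.3 and 96.0 CPM in starved WT, 159.8 and 159.2 CPM in RA in normal medium, and 118 and 117 CPM in starved RA. The starved WT samples were the lowest and the starved RA samples lay between them and both groups in normal medium. The log2 difference was -0.70 in WT (SE 0.04, adjusted p = 4.53e-11) and -0.44 in RA (SE 0.04, adjusted p = 4.07e-08), and 0.27 between starved RA and starved WT (SE 0.04, adjusted p = 1.64e-05).

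The effector genes Bax and Bak1 moved in opposite directions. Bax stood at 44.6 and 45.2 CPM in WT in normal medium, 86.1 and 94.95 CPM in starved WT, 47.7 and 49.9 CPM in RA in normal medium, and 69.0 and 70.7 CPM in starved RA. Starved WT was the highest group, starved RA came next and the groups in normal medium were the lowest. The log2 difference with starvation was 1.0 in WT (SE 0.051, adjusted p = 9.29e-12) and 0.51 in RA (SE 0.051, adjusted p = 1.26e-07), and starved RA less starved WT was -0.37 on the log2 scale (SE 0.051, adjusted p = 8.56e-06). Bax lies at chr7:45461697-45466898 on the minus strand in GRCm38 and shares 192 exon bases with Gm45808 on the same strand, so the assignment of those reads is uncertain.

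Bak1 fell in both genotypes. It stood at 72.2 and 76.0 CPM in WT in normal medium, 35.2 and 36.0 CPM in starved WT, 68.2 and 74.4 CPM in RA in normal medium, and 31.0 and 31.1 CPM in starved RA. Both starved groups lay below both groups in normal medium, and the starved RA samples were below the starved WT samples. The log2 difference was -1.04 in WT (SE 0.052, adjusted p = 7.99e-12) and -1.17 in RA (SE 0.052, adjusted p = 3.5e-12), and -0.19 between starved RA and starved WT (SE 0.052, adjusted p = 0.00425). Bak1 (chr17:27019810-27029009, minus strand, GRCm38) shares 437 and 177 exon bases with 2 annotated models of Ggnbp1 on the opposite strand. Ggnbp1 had mean levels of 89.5, 55.8, 86.5 and 49.5 CPM in the same order of groups, with a Pearson correlation of 0.9991 to Bak1 over the 8 samples, so reads of the pair may be mixed in these values.

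Pmaip1, the gene of the BH3-only protein NOXA, had the largest rise of the family in both genotypes. It stood at 10.1 and 9.997 CPM in WT in normal medium, 69.4 and 72.2 CPM in starved WT, 12.6 and 10.4 CPM in RA in normal medium, and 54.1 and 52.5 CPM in starved RA. The 3 levels (normal medium, starved RA and starved WT) were well apart. The log2 difference was 2.70 in WT (SE 0.074, adjusted p = 1.87e-15) and 2.12 in RA (SE 0.074, adjusted p = 1.32e-13), with ratios of mean levels of 7.03 and 4.63. Starved RA less starved WT was -0.40 on the log2 scale (SE 0.074, adjusted p = 0.000164).

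Bbc3, which encodes PUMA, rose in both genotypes to about the same level. It stood at 6.57 and 6.61 CPM in WT in normal medium, 8.89 and 10.2 CPM in starved WT, 5.79 and 5.10 CPM in RA in normal medium, and 9.68 and 9.37 CPM in starved RA. The starved RA samples lay between the 2 starved WT samples. The log2 difference was 0.47 in WT (SE 0.1, adjusted p = 0.000515) and 0.71 in RA (SE 0.1, adjusted p = 1.18e-05). Starved RA less starved WT gave a log2 difference of -0.00 (adjusted p = 0.99) with a 95% interval from -0.22 to 0.22.

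Bcl2l11, the gene of BIM, did not pass the test in any of the comparisons. It stood at 15.1 and 16.5 CPM in WT in normal medium, 17.5 and 17.7 CPM in starved WT, 17.2 and 19.5 CPM in RA in normal medium, and 18.3 and 18.1 CPM in starved RA. The levels of all 8 samples lay between 15.1 and 19.5 CPM. The log2 difference with starvation was 0.15 in WT (adjusted p = 0.099, 95% interval -0.02 to 0.31) and -0.01 in RA (adjusted p = 0.917, 95% interval -0.18 to 0.16). After quantile normalization the rise in WT was called (0.27, adjusted p = 0.00506).

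Bcl2l11 and Bbc3 are known FOXO target genes, and the FOXO motif GTAAACA was found near a start of these 2 genes among the 9 members whose windows were searched. The windows were RefSeq promoters of GRCm38.p6, which is not the mm9 build to which the reads were mapped, from 250 bases before to 50 bases after each of 16 starts, and both strands were read. The motif was present in 3.65% of all 32851 such windows and in at least 1 window of 4.05% of genes. In Bcl2l11 it lies at chr2:128125811-128125817 on the plus strand, 227 bases before the start and outside the exons, and in Bbc3 its reverse complement lies at chr7:16310094-16310100, 167 bases before a start within the gene and outside the exons. The stretches around them are shown with the motif in capitals, 5′ to 3′ on the strand of the gene.
Bcl2l11 (chr2:128125788-128125842): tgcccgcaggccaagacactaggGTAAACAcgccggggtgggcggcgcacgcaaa
Bbc3 (chr7:16310069-16310125): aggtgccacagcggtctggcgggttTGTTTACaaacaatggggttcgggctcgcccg
The E-box CACGTG, a palindrome read by basic helix-loop-helix factors such as MYC and the MiT/TFE family, was in windows of Bbc3 and Bax, against 7.15% of all windows and 8.09% of genes. In Bax it lies at chr7:45466902-45466907, 9 bases before the start, and again at chr7:45466858-45466863, 35 bases after the start within an exon, and in Bbc3 at chr7:16310367-16310372, 64 bases before another start. A stretch before a start is shown for each gene with the E-box in capitals.
Bax (chr7:45466899-45466932, minus strand): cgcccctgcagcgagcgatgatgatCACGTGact
Bbc3 (chr7:16310342-16310397, plus strand): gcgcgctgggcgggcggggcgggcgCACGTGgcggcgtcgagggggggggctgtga
The composite C/EBP-ATF motif TGATGNAA was in windows of 0 of the 9 genes, against 3.97% of all windows and 4.51% of genes. The Sp1 box GGGCGG was in windows of 7 of the 9 (Bcl2, Mcl1, Bcl2l11, Bbc3, Bax, Bmf and Bid) against 35.7% of all windows and 38.2% of genes. Each of these is a match of letters, and nothing about binding was measured.

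Bid, whose protein links death receptors to the mitochondrion after cleavage by caspase-8, rose more in RA than in WT. It stood at 56.8 and 57.9 CPM in WT in normal medium, 69.2 and 63.8 CPM in starved WT, 60.8 and 61.5 CPM in RA in normal medium, and 83.1 and 81.5 CPM in starved RA. Starved RA was the highest group and did not overlap with any other. The log2 difference was 0.21 in WT (SE 0.047, adjusted p = 0.000626) and 0.42 in RA (SE 0.047, adjusted p = 4.84e-07), and 0.30 between starved RA and starved WT (SE 0.047, adjusted p = 2.76e-05). Bid (chr6:120891930-120916853, minus strand, GRCm38) shares 628 exon bases with Bcl2l13 on the opposite strand, whose mean level went from 66.4 to 79.6 CPM in WT and from 68.8 to 61.8 CPM in RA.

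Bmf, whose protein is held at the cytoskeleton in healthy cells, had the lowest levels of the family. It stood at 1.37 and 1.17 CPM in WT in normal medium, 2.26 and 1.86 CPM in starved WT, 1.24 and 0.814 CPM in RA in normal medium, and 1.097 and 0.743 CPM in starved RA, which are 36 to 108 reads. Both starved WT samples were above all others. The log2 difference was 0.43 in WT (SE 0.15, adjusted p = 0.015), -0.08 in RA (SE 0.15, adjusted p = 0.667, 95% interval -0.39 to 0.24) and -0.68 between starved RA and starved WT (SE 0.15, adjusted p = 0.000875). The rise in WT was lost without WT replicate 2 in normal medium (adjusted p = 0.0876), without starved WT replicate 1 (adjusted p = 0.126), with no filter on low values (adjusted p = 0.0605) and with DESeq2 (adjusted p = 0.0583).

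**Figure D2:**
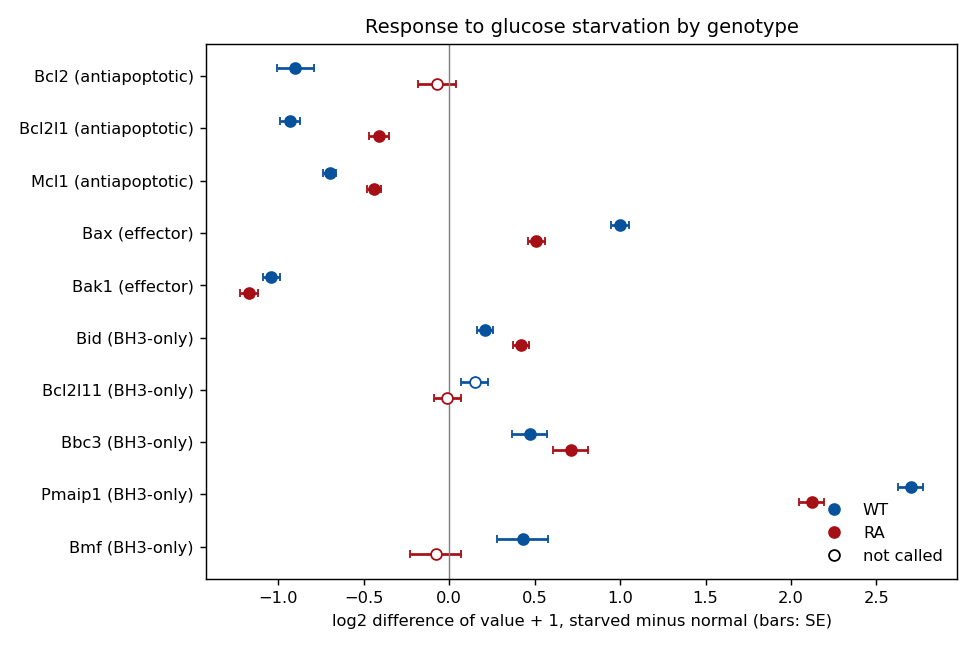
Log2 difference of CPM + 1 between starved and normal medium (horizontal axis) for the 10 genes (vertical axis) in WT (blue) and RA (red), with bars for the SE and open circles for differences not called by limma. Bcl2 lies at -0.90 in WT and -0.07 in RA, and Pmaip1 at 2.70 in WT and 2.12 in RA.

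Whether the response to starvation depended on the genotype was tested as the interaction, the response in RA less that in WT. It was called for 6 of the 10 genes, 4 with a higher value in RA (Bcl2, Bcl2l1, Mcl1 and Bid) and 2 with a lower value (Pmaip1 and Bax), against 50.6% of all tested genes (24.5% higher and 26.1% lower). For the protective genes the interaction was 0.83 for Bcl2 (SE 0.15, adjusted p = 0.000216), 0.52 for Bcl2l1 (SE 0.082, adjusted p = 5.89e-05) and 0.26 for Mcl1 (SE 0.057, adjusted p = 0.00116) on the log2 scale. Bcl2l1 and Mcl1 fell less in RA, and the fall of Bcl2 was called in WT and not in RA. For Bax and Pmaip1 it was -0.49 (SE 0.072, adjusted p = 3.18e-05) and -0.57 (SE 0.1, adjusted p = 0.000237), so both rose less in RA. The interaction of Bid was 0.21 (SE 0.067, adjusted p = 0.0137), a larger rise in RA, and it was no longer called without starved WT replicate 2 (adjusted p = 0.0763), without starved RA replicate 1 (adjusted p = 0.0539) or without the mean-variance trend (adjusted p = 0.0582). The interactions of Bak1 (-0.14, 95% interval -0.29 to 0.02), Bbc3 (0.24, -0.07 to 0.55), Bcl2l11 (-0.16, -0.39 to 0.08) and Bmf (-0.51, -0.96 to -0.06, adjusted p = 0.0566) were not called on the log2 scale. That of Bmf was called with the replicate block (adjusted p = 0.0301), with quantile normalization (adjusted p = 0.0203), without RA replicate 2 in normal medium (adjusted p = 0.0238) and without starved RA replicate 1 (adjusted p = 0.0357). Bak1 was called without RA replicate 1 in normal medium (-0.20, adjusted p = 0.0378) and Bcl2l11 after quantile normalization (-0.29, adjusted p = 0.0371).

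The direction of the estimate was the same in both genotypes for 8 of the 10 genes, against 79.6% of all tested genes, and its size was smaller in RA for 7 of the 10, against 68.4%. The family was thus near the background in both counts. Bbc3, Bak1 and Bid had the larger estimates in RA.

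Between starved RA and starved WT, 8 of the 10 genes were called, with Bcl2, Bcl2l1, Mcl1 and Bid higher and Pmaip1, Bax, Bak1 and Bmf lower in RA. The background was 62.9% of all tested genes, 30.8% higher and 32.1% lower. Among the 10, all 3 genes with protective proteins were higher in starved RA, and the effector genes Bax and Bak1 were both lower. Outside the 10, the protective relative Bcl2l2 (0.36, adjusted p = 4.94e-06) and the effector relative Bok (0.57, adjusted p = 2.27e-05) were both higher in starved RA. The BH3-only genes were divided, with Bid higher, Pmaip1 and Bmf lower, and Bbc3 and Bcl2l11 not called.

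In normal medium 0 of the 10 genes were called between RA and WT by limma, and 0 by edgeR or DESeq2, against a background of 9.63% of all tested genes (6.68% higher and 2.95% lower). At an unadjusted p-value under 0.05 there were 4 of the 10, namely Bcl2l11, Pmaip1 and Bax with higher and Bbc3 with lower levels in RA. Their log2 differences were 0.20 (95% interval 0.04 to 0.37, adjusted p = 0.118) for Bcl2l11, 0.17 (0.01 to 0.33, adjusted p = 0.161) for Pmaip1, 0.12 (0.01 to 0.23, adjusted p = 0.161) for Bax and -0.24 (-0.46 to -0.02, adjusted p = 0.165) for Bbc3. Without RA replicate 1 in normal medium Bcl2l11 was called (0.29, adjusted p = 0.0479), and without RA replicate 2 in normal medium Pmaip1 was called (0.30, adjusted p = 0.0155), which gives 1 gene in either case. For the protective genes the interval was -0.23 to 0.22 for Bcl2, -0.03 to 0.21 for Bcl2l1 and -0.07 to 0.10 for Mcl1. The comparisons share samples with each other, so they are not independent.

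To compare levels between genes, levels were divided by the merged exon length of each gene in GRCm38. Merged exons join all annotated transcripts of a gene, so close ranks such as those of Bak1 and Bax depend on the annotation. In WT in normal medium the order per kb was Mcl1 (46.2 CPM per kb), Bak1 (30.8), Bax (28.5), Bid (16.1), Bcl2l1 (11.3), Pmaip1 (3.68), Bbc3 (3.1), Bcl2l11 (1.97), Bcl2 (0.83) and Bmf (0.242), with no overlap between the samples of neighbours. Bcl2 was therefore the lowest of the protective transcripts, and Mcl1 the highest. In starved WT the order was Bax (57.4 CPM per kb), Mcl1 (28.3), Pmaip1 (25.9), Bid (18.7), Bak1 (14.8), Bcl2l1 (5.83), Bbc3 (4.5), Bcl2l11 (2.19), Bcl2 (0.394) and Bmf (0.393), and the samples of Bcl2 and Bmf overlapped. Bax had moved above Mcl1, and Pmaip1 above Bid and Bak1.

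In RA in normal medium Mcl1 led again with 46.7 CPM per kb, before Bax (31), Bak1 (29.6), Bid (17.2), Bcl2l1 (12.1), Pmaip1 (4.21), Bbc3 (2.56), Bcl2l11 (2.29), Bcl2 (0.828) and Bmf (0.196). The samples of Bax and Bak1 overlapped, as did those of Bbc3 and Bcl2l11. In starved RA the order was Bax (44.3 CPM per kb), Mcl1 (34.3), Bid (23.2), Pmaip1 (19.5), Bak1 (12.9), Bcl2l1 (9), Bbc3 (4.48), Bcl2l11 (2.27), Bcl2 (0.782) and Bmf (0.175), with no overlap between neighbours. Bid stood above Pmaip1 in starved RA and below it in starved WT.

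**Figure D3:**
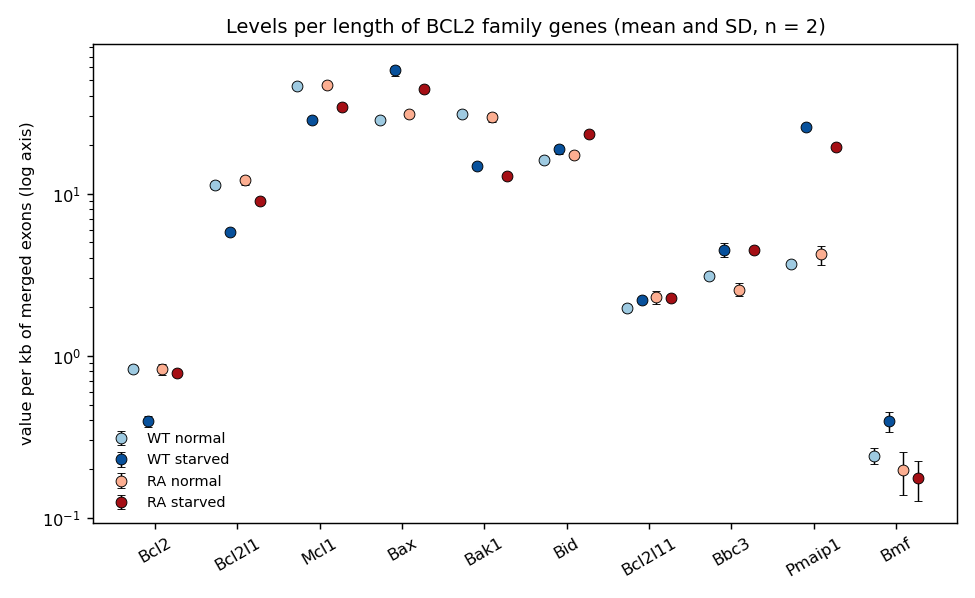
Levels in CPM per kb of merged exon (vertical log axis) of the 10 genes (horizontal axis) in the 4 groups, as means with bars for the SD (n = 2). Bax was at 57.4 in starved WT and 44.3 in starved RA, above Mcl1 at 28.3 and 34.3.

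The balance between transcripts of opposing proteins was described as ratios of levels within each sample, with no test. These ratios do not measure cell death. In MEFs with a methylation mutant of Pontin, the study reports an earlier loss of viability under glucose starvation than in WT MEFs. The ratio of Bax to Bcl2 was 5.66 and 6.15 for WT in normal medium, 22.6 and 27.9 for starved WT, 6.65 and 6.25 for RA in normal medium, and 9.63 and 9.89 for starved RA. Its mean was thus 4.28 times as high with starvation in WT and 1.51 times as high in RA, and the starved groups did not overlap. The ratio of Bax to Bcl2l1 had means of 0.864, 3.39, 0.881 and 1.69 in the same order of groups, an increase of 3.92 times in WT and 1.92 times in RA.

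For Pmaip1 over Mcl1, whose proteins bind each other, the ratio was 0.0663 and 0.0612 for WT in normal medium, 0.713 and 0.752 for starved WT, 0.0788 and 0.0655 for RA in normal medium, and 0.46 and 0.451 for starved RA. It increased by 11.5 times in WT and 6.31 times in RA. The ratio of Bcl2l11 to Bcl2l1 had means of 0.304, 0.658, 0.331 and 0.441, and that of Bak1 to Mcl1 went the other way, with means of 0.469, 0.369, 0.447 and 0.265. For the same reason that levels depend on gene length, only the change of a ratio between groups can be read from these values.

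**Figure D4:**
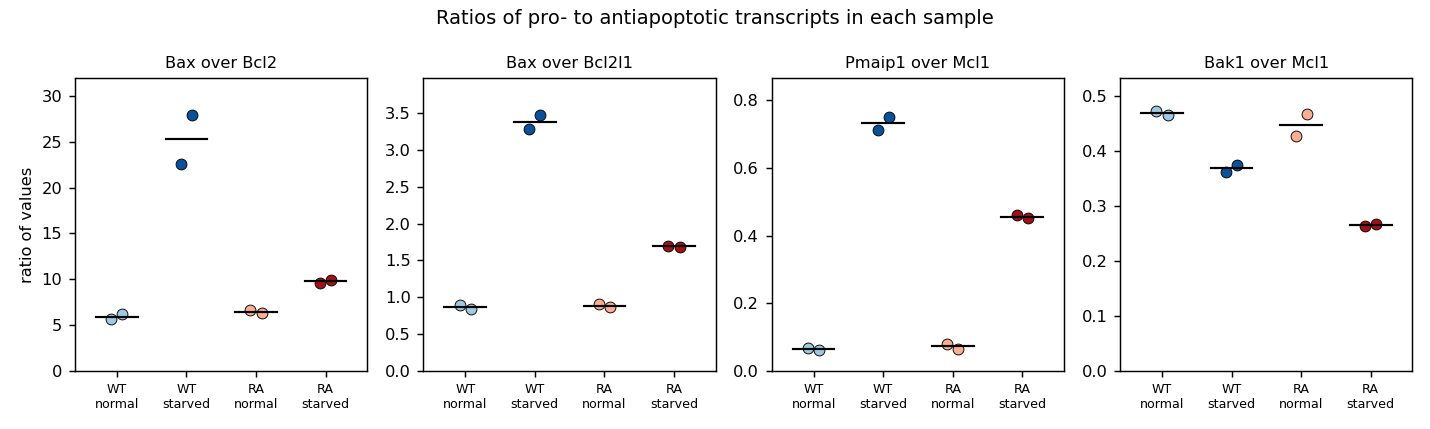
Ratios of levels in each sample (vertical axes, each starting at 0) for 4 pairs of genes in the 4 groups (horizontal axes), with points for samples and lines for means of n = 2. Bax over Bcl2 was 22.6 and 27.9 in starved WT and 9.63 and 9.89 in starved RA.

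The genes whose pattern was most like that of each member were named by the Pearson correlation of log2(CPM + 1) over the 8 samples, among about 10483 genes with a mean level of at least 10 CPM. The samples form 4 groups of replicates, so high correlations arise for any pattern set by the groups. For Bcl2 they were Vasp (0.9961), Dcaf15 (0.9943) and A430105I19Rik (0.9942), for Bcl2l1 Krt19 (0.9977), Emp3 (0.9976) and S100a6 (0.9968), and for Mcl1 Lpar1 (0.9984), Fnbp1 (0.9982) and Rbbp7 (0.9979). For Bax they were Pwp2 (0.9974), the row named Mir5121 (0.997) and Clcc1 (0.9969), and for Bak1 the overlapping Ggnbp1 (0.9991), Srsf2 (0.9988) and Top1 (0.9982). The pattern of Pmaip1 was the most common one, with 292 genes at a correlation above 0.99, led by Lmbrd1 (0.9996), Srfbp1 (0.9992) and Gpnmb (0.999). That number was 242 for Mcl1, 178 for Bak1, 175 for Bax, 80 for Bcl2l1, 22 for Bcl2, 2 for Bid and 0 for each of Bcl2l11, Bbc3 and Bmf. Bid was most like Aplp2 (0.9938), Stambp (0.9903) and Plekho2 (0.9899), and Bbc3 most like Snapc4 (0.9798), Pot1b (0.9795) and Ccnl1 (0.9793). Bmf was most like Arhgef12 (0.9799), Gm42727 (0.9766) and Eif5a2 (0.9757), and Bcl2l11 most like Atp5h (0.9438), Eif3s6-ps2 (0.9286) and Ltbr (0.9161). Among the members themselves the correlation was 0.935 between Bcl2 and Bcl2l1, 0.964 between Bcl2l1 and Mcl1, and -0.986 between Mcl1 and Bax. The effector gene Bak1 ran with Mcl1 (0.897) and against Bax (-0.886).

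The other genes of the family were read from the same fit. For this list and those below, the counts stand beside these shares of all tested genes called. The shares were 78.6% for starvation in WT (39.3% higher), 68.7% for starvation in RA (35% higher) and 50.6% for the interaction (24.5% higher). They were 62.9% between starved RA and starved WT (30.8% higher) and 9.63% in normal medium (6.68% higher). No list was tested as a set. Of 16 listed, 8 passed the filter, and Bcl2a1a, Bcl2a1b, Bcl2a1d, Bcl2l10, Bik, Hrk, Bcl2l14 and Bcl2l15 did not. With starvation 5 rose and 3 fell in WT, 4 rose and 3 fell in RA, and the interaction was called for 7, 3 higher and 4 lower in RA. Bnip3, whose protein acts in mitophagy and cell death, rose by 2.16 in WT (adjusted p = 1.99e-15) and by 1.33 in RA (adjusted p = 3.41e-12) on the log2 scale, with an interaction of -0.82 (adjusted p = 5.27e-07). Bok, an effector relative of Bax, had the highest interaction, 0.67 on the log2 scale (adjusted p = 0.000244), and Bcl2l12 the lowest difference in WT, -0.88 (adjusted p = 1.12e-07), and in RA, -0.52 (adjusted p = 7.38e-05). Between starved RA and starved WT 2 were higher and 4 lower, from Bok at 0.57 (adjusted p = 2.27e-05) to Bnip3 at -0.86 (adjusted p = 1.8e-09), and in normal medium Bnip3l alone was called (0.18, adjusted p = 0.0163), which became 0 with no filter, with scaling to total reads, without the trend, or without WT replicate 1 or RA replicate 2.

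Downstream of the mitochondrion, 17 genes of the apoptosome, the caspases and mitochondrial factors were tested. In WT 6 rose and 7 fell with starvation, and in RA 3 rose and 8 fell. Endog, a mitochondrial nuclease, had the highest log2 difference in both, 0.59 in WT (adjusted p = 3.25e-06) and 0.37 in RA (adjusted p = 0.000515). The interaction was called for 3 higher and 5 lower, the lowest being Apaf1, the scaffold of the apoptosome, at -0.54 (adjusted p = 0.00016). Between starved RA and starved WT 7 were higher and 6 lower, the latter led by Apaf1 (-0.85, adjusted p = 1.04e-08). Without starved RA replicate 2 the latter 13 calls were 8. In normal medium Cycs was higher (0.20, adjusted p = 0.00482) and Apaf1 lower (-0.30, adjusted p = 0.00865) in RA, which became 0 with no filter, without the trend or without WT replicate 1, and 1 without WT replicate 2 or RA replicate 2.

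Of 6 inhibitors of apoptosis, 1 rose and 5 fell in WT, and 1 rose and 2 fell in RA. Birc5, the gene of survivin, which also acts in mitosis, fell by 2.59 in WT (adjusted p = 1.1e-16) and by 2.40 in RA (adjusted p = 1.08e-15) on the log2 scale. Cflar, whose protein restrains caspase-8, rose by 0.81 (adjusted p = 6.95e-10) and 0.33 (adjusted p = 7.41e-05), with an interaction of -0.48 (adjusted p = 9.88e-05). The interaction was called for 4 higher, led by Birc3 at 1.08 (adjusted p = 3.5e-06), and 1 lower; with DESeq2 or median-ratio scaling 3 were called in all, as without either WT sample or RA replicate 2 in normal medium, and 2 with no filter, without the trend or without starved WT replicate 2. Starved RA exceeded starved WT for 3, led by Birc3 (1.15, adjusted p = 1.18e-08), and was below it for Cflar (-0.44, adjusted p = 3.71e-06), and in normal medium 0 were called by limma, 1 at an unadjusted p-value under 0.05, and 1 by edgeR with the replicate block or without RA replicate 1.

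Of 8 genes of death receptors, a ligand and adaptors, 7 were tested and the ligand gene Tnfsf10 was not. In WT the 2 that rose were the adaptor genes Ripk1 (0.52, adjusted p = 2.1e-08) and Tradd (0.42, adjusted p = 7.27e-05). The receptor gene Tnfrsf1a fell (-0.47, adjusted p = 6.64e-08), and the receptor genes Fas and Tnfrsf10b were not called in WT. In RA 3 rose and 1 fell, from Fas (1.03, adjusted p = 3.52e-06, with a mean under 5 CPM) and Tradd (0.45, adjusted p = 4.44e-05) to Tnfrsf1a (-0.26, adjusted p = 0.000108). With edgeR or scaling to total reads 5 were called in WT. The interaction was called for 3 higher and 1 lower, led by Fas (1.25, adjusted p = 4.47e-05), and starved RA exceeded starved WT for 3, also led by Fas (1.47, adjusted p = 7.03e-08). The interaction count was 2 in all with quantile normalization, with DESeq2, without the trend, or without WT replicate 2 or RA replicate 1 in normal medium, starved WT replicate 1 or starved RA replicate 2, and 1 without starved RA replicate 1. In normal medium Tnfrsf10b was lower in RA (-0.19, adjusted p = 0.0396); the count was 0 with no filter, without the trend, with the compared groups alone, or without either WT sample or RA replicate 1, and 2 with the replicate block.

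Among 15 tested regulators of the family (Trp73 did not pass the filter), 7 rose and 6 fell in WT and 5 rose and 5 fell in RA. Ddit3, the gene of the stress factor CHOP, rose by 4.13 in WT (adjusted p = 1.44e-20) and 3.67 in RA (adjusted p = 3.96e-19), and Jun fell by 0.97 (adjusted p = 1.99e-10) and 1.06 (adjusted p = 1.27e-10) on the log2 scale. The interaction was called for 1 higher, Foxo1 (0.54, adjusted p = 0.00248), and 7 lower, of which Foxo3 was the lowest (-0.78, adjusted p = 1.62e-05). Foxo3 stood at mean levels of 17.2 CPM in WT in normal medium, 36.4 CPM in starved WT, 17.4 CPM in RA in normal medium and 20.9 CPM in starved RA, and was the lowest of the list between starved RA and starved WT (-0.77, adjusted p = 1.76e-07), where 4 were higher and 7 lower. Myc was the highest there (0.48, adjusted p = 2.97e-08) and the only one called in normal medium (0.37, adjusted p = 1.15e-05), where scaling to total reads, the replicate block or leaving out RA replicate 1 gave 2 and edgeR with the block 3.

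The target genes of these regulators were taken as 3 lists, in which Tnfrsf10b, Fas and Bcl6 stand more than once across all lists. Of 19 p53 target genes 8 rose and 7 fell in WT, from Trp53inp1 (3.01, adjusted p = 8.27e-13) to Sesn1 (-1.62, adjusted p = 9.5e-12), and 10 rose and 5 fell in RA, from Sesn2 (1.86, adjusted p = 4.52e-14) to Sesn1 (-0.83, adjusted p = 1.19e-07). The p53 interactions were called for 8 higher and 3 lower, from Fas (1.25) and, among genes with a mean of at least 5 CPM, Phlda3 (0.97, adjusted p = 2.04e-05) to Trp53inp1 (-1.34, adjusted p = 1.26e-05), 10 were higher and 5 lower between starved RA and starved WT, and 3 were higher and 1 lower in normal medium, a count that was 2 in all with no filter or without either WT sample or RA replicate 2 and 0 without the trend. Of 14 FOXO target genes 9 rose and 4 fell in WT, from Gadd45a (3.77, adjusted p = 3.7e-19) to Klf6 (-1.22, adjusted p = 2.39e-14), and 6 rose and 3 fell in RA, from Gadd45a (3.58, adjusted p = 4.64e-18) to Cited2 (-0.61, adjusted p = 1.89e-09). The FOXO interactions were called for 4 in each direction, from Klf6 (1.02, adjusted p = 2.59e-10) to Ccng2 (-1.21, adjusted p = 8.98e-07), 7 were higher and 5 lower between starved RA and starved WT, and 3 were higher in normal medium, led by Fbxo32 (0.64, adjusted p = 0.000264).

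The ATF4 and CHOP target genes were read last. Of 9 tested (Ero1a was not found under that symbol), 8 rose and 0 fell in each genotype, led by Ppp1r15a in WT (3.87, adjusted p = 6.46e-20) and Trib3 in RA (3.62, adjusted p = 6.58e-19), with median log2 differences of 2.84 and 2.27. The interaction was called for 2 higher and 4 lower, from Trib3 (0.24, adjusted p = 0.00407) to Ppp1r15a (-0.97, adjusted p = 2.58e-09), 3 were higher and 3 lower between starved RA and starved WT, and 6 were higher and 2 lower in normal medium, from Chac1 (0.51, adjusted p = 6.06e-07) to Ddit4 (-0.20, adjusted p = 0.00536), a count of 3 in all without the trend. Exons of Bnip3, Bcl2l12, Endog, Ripk1, Ddit3, Jun, Fbxo32, Foxo1, Gadd45a and Ppp1r15a overlap those of another gene on the opposite strand in GRCm38, and those of Ripk1 also a pseudogene on the same strand, so their reads may be mixed with those of that gene.

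**Figure D5:**
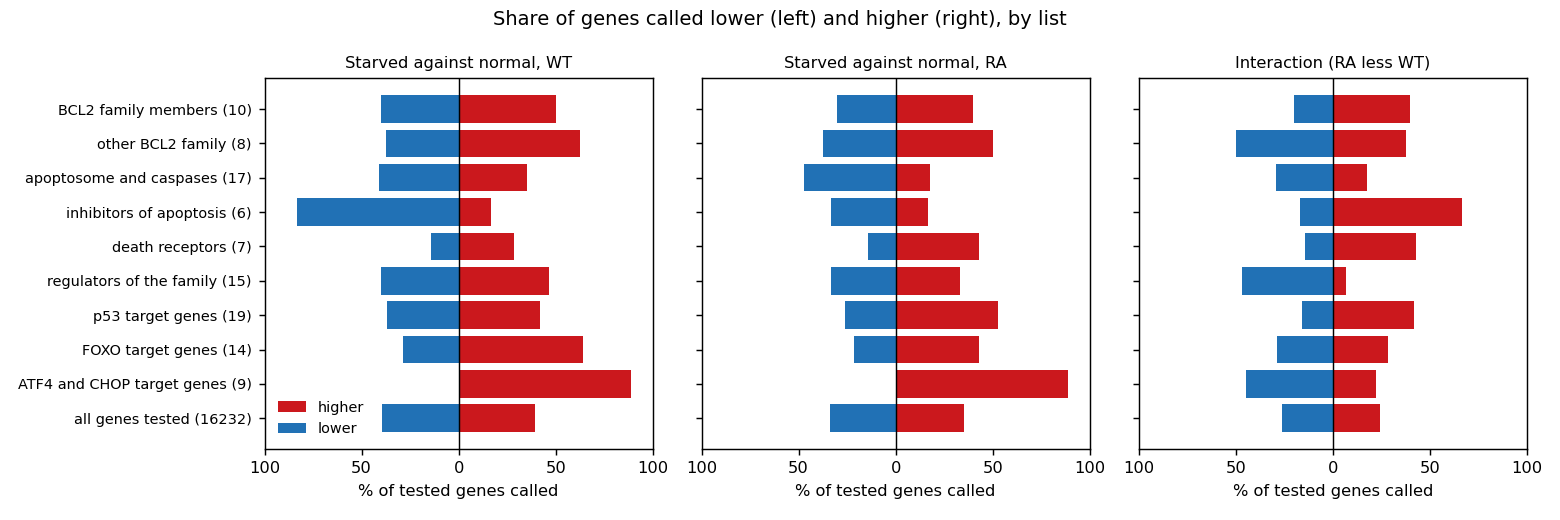
Share of the tested genes called lower (blue, to the left) and higher (red, to the right) in % of each list (vertical axis, with the number of genes tested) for starvation in WT, starvation in RA and the interaction. Of the 10 BCL2 family genes, 5 were called higher and 4 lower in WT, 4 and 3 in RA, and 4 and 2 in the interaction. The shares of the 16232 genes tested were 39.3% and 39.2%, 35% and 33.7%, and 24.5% and 26.1%. The list marked death receptors includes adaptors, and 8 of the 9 ATF4 and CHOP target genes rose in each genotype.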

How the data were processed

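PolyA libraries (TruSeq RNA v2, paired ends, HiSeq) of 8 MEF samples were mapped to mm9 with TopHat2 (version 2.0.9, per the submitters' processing notes, which also name bedtools and edgeR). The authors deposited signal values, read counts divided by a library size scaled per sample (CPM), whose columns summed to 965845 to 1029723. The read counter, annotation, use of strand and filters are not given in the sources used here. Columns marked minus were taken as normal medium and those marked plus as starved, after the scheme of the study. All nonzero values were whole reads to within 0.02 reads; 3 reads equal 0.0548 to 0.069 CPM, for counting error only. Of recovered counts from 1 to 9, 78.2% to 80.5% were even, so edgeR was also run on halved reads.

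Genes at 1 CPM or more in at least 2 samples were tested with limma 3.58.1 (R 4.3.3) on log2(CPM + 1), fitting the 4 group means to the 8 samples together (eBayes with trend, 2-sided, Benjamini-Hochberg, called under 0.05). The plan had named CPM of the plain library total, and the test was kept. Alternatives were a pseudocount of 0.1, no filter, median-ratio, total-read and quantile scaling, a replicate block, eBayes without trend, the compared groups alone, leaving out each sample, edgeR 4.0.16, DESeq2 1.42.0 and, chosen after seeing the data, edgeR with the replicate block. The members and gene lists were chosen with earlier results of these data known. Named genes were the members, the called gene with the highest and lowest log2 difference of each list in each comparison (mean at least 5 CPM), Ruvbl1, and the 3 genes most like each member (mean at least 10 CPM); Fas and the fibroblast markers were added after their values were seen, and some genes that the rule names are not reported here. Gene models are from GENCODE on GRCm38 and promoters from RefSeq on GRCm38.p6, which are not the build of the reads. The tests were tried on simulated counts.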

Additional observations from a re-analysis of the deposited data

Results flagged for a closer look

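The response to glucose starvation differed between the genotypes by limma's interaction test for 6 of the 10 BCL2 family genes, against 50.6% of all tested genes. On the log2 scale, the response in RA less that in WT was 0.83 for Bcl2, 0.52 for Bcl2l1 and 0.26 for Mcl1, the 3 genes with protective proteins. It was -0.57 for Pmaip1 and -0.49 for Bax, and 0.21 for Bid, the only one of the 6 whose call was lost in some alternatives. Each group has 2 samples, so no test for outlying samples was made.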

How the results depend on the processing

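With 2 samples a group, the limits lie mostly in the small differences. Of the values of single members, 575 kept their call and direction under settings other than leaving out a sample, 3 lost the call, 4 gained it and 8 changed direction. Without 1 sample the numbers were 222, 4, 5 and 9. None of the called values changed direction under these settings, and the calls that were lost or gained are given with their values in the report. Bmf rests on 36 to 108 reads per sample, and the part of depth in its calls was not tested. Scaling moved the median of all genes by less than 0.1, but in normal medium the share of higher among called genes was 69.4%, against 40.4% after scaling to total reads and 52.6% after quantile normalization, and for the interaction 48.4%, against 58.1% after scaling to total reads.

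The values that changed direction were all uncalled. In normal medium, RA less WT for Mcl1 was -0.03 with total reads, -0.04 with quantile normalization and -0.00 with DESeq2, and ran from -0.03 to 0.06 without single samples; that range was -0.07 to 0.06 for Bcl2 and -0.12 to 0.01 for Bak1. Under starvation, RA less WT for Bbc3 was 0.02 with total reads, 0.01 with edgeR on recovered reads, on halved reads and with the block, and -0.09 to 0.09 without single samples, and for Bcl2l11 -0.09 with quantile normalization. With starvation in RA the range without single samples was -0.10 to 0.08 for Bcl2l11 and -0.23 to 0.08 for Bmf. The cause was not tested.

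The number of called members without single samples was 0 to 1 in normal medium, 8 under starvation, 8 to 9 for starvation in WT, 7 for starvation in RA and 5 to 7 for the interaction, which gave 8 after quantile normalization and 5 without the trend. With the replicate block the interaction was called for 7. Replicates of the same number deviated from their group means with correlations of -0.0076 to 0.16 (mean 0.066) over all tested genes and -0.027 to 0.30 over those with a mean above 10 CPM; not every pair was above 0.1, so the numbers were not taken as pairs. Of the list counts, 27 changed by over 1.5 times outside the single-sample settings (9 up and 18 down), 16 of them in normal medium, and 445 did not.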
